A study of Mus musculus with 11 samples.

Results

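The primitive endoderm genes Gata4, Gata6, Sox17, Sox7, Hnf4a, Pdgfra, Dab2, Lama1, Lamb1 and Col4a1 were followed in mouse embryonic stem cells (ESCs) through RNA-seq and through ChIP-seq peaks of Polycomb proteins. They were chosen by name as 10 of the 23265 gene symbols in the deposited RNA-seq table, and all 10 had an entry. The cells were of the E14Tg2A line, an ESC line grown here without feeder cells in serum with leukemia inhibitory factor (LIF). For RNA-seq, ESCs carried a lentiviral control shRNA (shCtl, 2 libraries) or an shRNA against Cbx6 (shCbx6, 2 libraries). All 4 libraries therefore came from infected cells, which the paper selected with an antibiotic, and which Cbx6 shRNA each shCbx6 library carries is not given in the sources used here. For ChIP-seq, 2 replicates used an antibody against HA in ESCs whose endogenous CBX6 carries a C-terminal 3×HA tag, a line derived from single sorted cells, and 1 sample each used antibodies against CBX7 and RING1B. The labels name one chromatin kit for the HA and CBX7 samples and another protocol for RING1B. Control ChIP-seq samples with HA antibody in untagged cells or with IgG were not used here.

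The primitive endoderm is the extraembryonic layer that separates from the epiblast inside the blastocyst and later gives rise to visceral and parietal endoderm. FGF4 from epiblast precursors acts through FGF receptors to favour this layer, whose cells express GATA6 and then SOX17, GATA4 and SOX7, and which lays down a basement membrane of laminin and type IV collagen. ESCs correspond to the epiblast, and in them many developmental regulators are held silent by Polycomb complexes. CBX6 and CBX7 are chromobox subunits of Polycomb repressive complex 1 (PRC1), and RING1B is its catalytic subunit, which places ubiquitin on histone H2A.

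Levels are given as FPKM, fragments scaled to the length of the transcript and to the mapped fragments of the library, so that genes of different length can be set side by side. A level of 1 FPKM was taken as the minimum for an expressed gene. In the shCtl cells, 3 of the 10 genes passed it, and all 3 encode basement membrane chains. A peak is a region where ChIP fragments pile up, and a gene was counted as having one when a peak overlapped it by at least 1 bp between 2.5 kb upstream of its start and its transcription end. Of the 10 genes, 6 had a peak in each of the 4 lists, and 5 of those 6 were below 1 FPKM in shCtl.

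**Figure D1:**
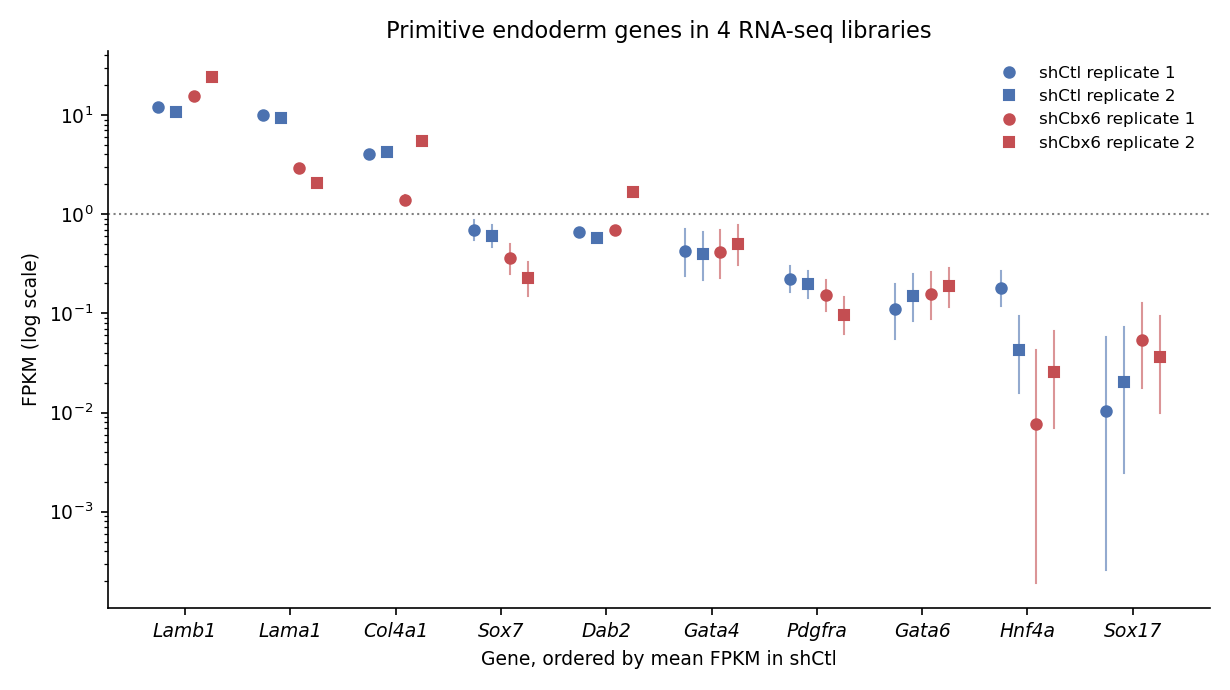
FPKM on a log scale of the 10 primitive endoderm genes in each of the 4 RNA-seq libraries, ordered by their mean in shCtl. Points are single libraries, bars are 95% Poisson intervals from the whole numbers described in the text, for each gene where these were found, and the dotted line marks 1 FPKM. The Gata4 bars may be too wide, since its numbers may be the true ones divided by a common factor. The 3 basement membrane genes lie above the line in every library, and Dab2 crosses it in shCbx6 replicate 2 alone.

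RefSeq promoter sequences were found for 5 of the 10 genes, in 7 entries. The 250 bases before the start are printed for 6 of them, because these windows span the range of peak states among the genes, from peaks in all 4 lists to none. All 7 windows were taken from a table on build GRCm38.p6 and were found at a matching position of mm9, whose coordinates are given. Sequences run 5′ to 3′ on the strand of the gene, and capitals mark each CG dinucleotide (CpG).
Col4a1, chr8:11312827-11313076, minus strand: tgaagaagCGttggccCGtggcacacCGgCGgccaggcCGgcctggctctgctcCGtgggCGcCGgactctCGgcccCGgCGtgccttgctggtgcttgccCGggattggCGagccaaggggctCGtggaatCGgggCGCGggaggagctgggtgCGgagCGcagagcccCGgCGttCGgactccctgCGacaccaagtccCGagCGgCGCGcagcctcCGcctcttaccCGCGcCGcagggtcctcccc
Pdgfra, chr5:75548026-75548275, plus strand: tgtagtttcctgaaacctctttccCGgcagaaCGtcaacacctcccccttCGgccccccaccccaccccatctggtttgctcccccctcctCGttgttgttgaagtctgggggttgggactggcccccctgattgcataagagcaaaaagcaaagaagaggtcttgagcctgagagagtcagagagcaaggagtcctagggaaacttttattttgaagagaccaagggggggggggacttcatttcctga
Lamb1, chr12:31949908-31950157, plus strand: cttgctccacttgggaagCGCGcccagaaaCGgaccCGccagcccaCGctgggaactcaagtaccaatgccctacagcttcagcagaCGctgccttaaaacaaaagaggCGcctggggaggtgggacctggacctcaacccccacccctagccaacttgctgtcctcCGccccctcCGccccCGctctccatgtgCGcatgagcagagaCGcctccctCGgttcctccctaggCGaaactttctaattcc
Dab2 downstream start, chr15:6336498-6336747, plus strand: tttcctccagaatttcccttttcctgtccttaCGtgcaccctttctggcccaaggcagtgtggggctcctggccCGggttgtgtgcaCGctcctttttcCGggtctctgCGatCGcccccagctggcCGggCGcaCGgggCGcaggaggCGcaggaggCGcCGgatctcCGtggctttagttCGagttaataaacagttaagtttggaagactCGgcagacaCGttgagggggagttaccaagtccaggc
Dab2 upstream start, chr15:6249539-6249788, plus strand: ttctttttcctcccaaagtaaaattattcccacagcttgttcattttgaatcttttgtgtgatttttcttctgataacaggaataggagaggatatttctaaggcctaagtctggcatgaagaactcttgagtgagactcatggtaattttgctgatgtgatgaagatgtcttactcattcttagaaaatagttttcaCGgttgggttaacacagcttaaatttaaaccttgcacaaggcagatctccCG
Hnf4a upstream start, chr2:163332343-163332592, plus strand: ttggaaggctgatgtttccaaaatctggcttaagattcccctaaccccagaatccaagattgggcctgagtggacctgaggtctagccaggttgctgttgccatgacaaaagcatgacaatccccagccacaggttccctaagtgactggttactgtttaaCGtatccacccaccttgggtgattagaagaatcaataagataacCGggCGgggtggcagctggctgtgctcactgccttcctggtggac

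Col4a1 had the richest of these windows, with 31 CpG and a GC content of 74.4%, and its count reached percentile 95.1 of all 32841 mouse promoter entries of the same length. Peaks of all 4 lists covered it. Pdgfra was covered by all 4 lists as well, with only 4 CpG (percentile 41.1) and 54.4% GC. The wide peaks at Pdgfra thus lay over a window with fewer CpG than the median entry, which held 6 (quartiles 2 and 16).

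The Lamb1 window held 14 CpG (percentile 71.7) and was overlapped by peaks of CBX6 replicate 2, CBX7 and RING1B. At Dab2 the pair of windows differed. The downstream one held 17 CpG with 60.0% GC (percentile 77.4) and lay under CBX7 and RING1B peaks, whereas the upstream one held 2 CpG with 36.8% GC (percentile 23.9) and no peak.

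Neither Hnf4a window had a peak, and they held 3 and 4 CpG (percentiles 33.4 and 41.1). Words bound by GATA factors, searched on either strand as AGATAA or AGATAG and with T as the first letter as TGATAA or TGATAG, occurred once in the upstream Dab2 window and once in the upstream Hnf4a window, and in none of the other 5. Of all promoter entries, 26.5% held such a word. Gata4, Gata6, Sox17, Sox7 and Lama1 had no entry.

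The Polycomb peaks were compared gene by gene to see which of the primitive endoderm genes carry CBX6 together with CBX7 and RING1B. Each list was called by the authors from 1 sample on the mm9 assembly, which all coordinates refer to. The lists held 21865 peaks for CBX6 replicate 1, 5103 for CBX6 replicate 2, 5081 for CBX7 and 4180 for RING1B, and the read depth behind them is unknown. Each peak has a score from the authors' caller, which was used only within a list. In 3 lists a score of 3100.0 recurs, at 134, 403 and 507 peaks of CBX6 replicate 2, CBX7 and RING1B, so peaks with that score cannot be ranked among themselves.

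Gata4, Gata6, Sox17, Sox7, Pdgfra and Col4a1 had a peak in all 4 lists, that is 6 of 10 genes, beside 11.5% of the 21951 genes with coordinates. CBX6 replicate 1 had a peak at 8 of the genes (all but Dab2 and Lamb1), beside 56.9% of all genes. CBX6 replicate 2 had one at 7 (all but Hnf4a, Dab2 and Lama1), beside 16.6%. CBX7 and RING1B each had one at the same 8 genes (all but Hnf4a and Lama1), beside 17.9% and 16.1%. These counts describe 10 named genes and were not tested.

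The share of genes with a peak differed with the level of RNA in these lists, so the 7 genes below 1 FPKM in shCtl were also set beside all 10993 genes below that level. Peaks in all 4 lists occurred at 5 of the 7, beside 16.8% of those genes. For the single lists the counts were 6 for CBX6 replicate 1, 5 for replicate 2, 6 for CBX7 and 6 for RING1B, beside 34.4%, 21.2%, 24.3% and 22.6%. Of the 3 genes at 1 FPKM or more, Col4a1 had all 4 peaks, Lama1 only that of CBX6 replicate 1, and Lamb1 those of the other 3 lists. In CBX6 replicate 1 the share with a peak was lower among genes below 1 FPKM (34.4%) than among all genes (56.9%). In the other 3 lists it was higher among genes below 1 FPKM. The peak at Lama1 thus came from the list in which peaks were more frequent at expressed genes.

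Where only CBX6 peaks shared by both replicates were counted, the same 6 genes remained, beside 14.1% and 14.0% of all genes by the peaks of replicates 1 and 2. Hnf4a, Lama1 and Lamb1 had CBX6 peaks in a single replicate and were not counted then. Without the weaker peaks, at a score of at least 100, CBX6 replicate 1 lost Hnf4a, CBX6 replicate 2 lost Lamb1 and RING1B lost Dab2.

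**Figure D2:**
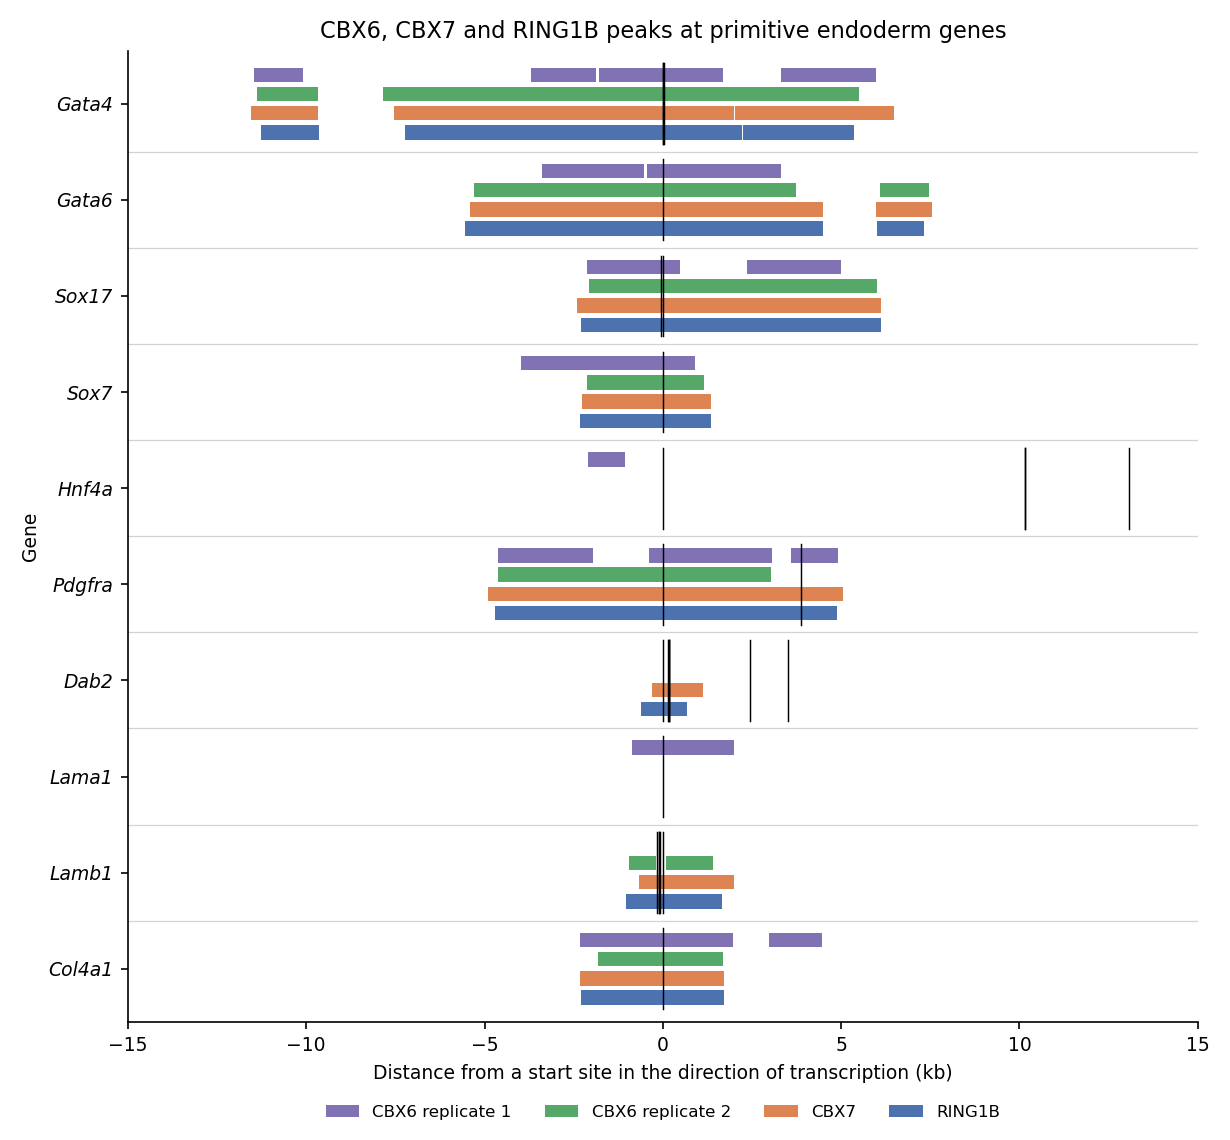
Peaks of the 4 lists (coloured bars) around a start site of each of the 10 genes, with the distance in kb along the direction of transcription. Vertical lines are annotated start sites. At Gata4, Gata6, Sox17 and Pdgfra the widest CBX6 replicate 2, CBX7 and RING1B peaks cover a start and are 7656 to 13336 bp wide, while those at Sox7, Lamb1 and Col4a1 are shorter.

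Among the 5 transcription factors, Gata6, the zinc-finger factor that starts the primitive endoderm programme, lies on chromosome 18 from 11052508 to 11085633 on the plus strand. Its start was covered by a RING1B peak of 10061 bp, a CBX7 peak of 9901 bp and a CBX6 replicate 2 peak of 9048 bp, all with the recurring score of 3100.0. In CBX6 replicate 1 the start lay under a peak of 3753 bp with a score of 283. A narrow peak within the gene, centred 6775 bp after the start in CBX6 replicate 2, was present in CBX7 and RING1B too and absent from CBX6 replicate 1. All 4 lists also covered the start of the lincRNA 1010001N08Rik, so the peaks belong to both genes by position.

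Gata4, a related factor of the same family, lies on chromosome 14 from 63817759 to 63890529 on the minus strand. The widest peak at any of the 10 genes was its CBX6 replicate 2 peak of 13336 bp, which lay at width percentile 99.6 of its list. It covered 3 of the 6 annotated starts, those in the middle of the gene, as did a CBX7 peak of 9534 bp and a RING1B peak of 9453 bp. Near the outermost start, at the 5′ end of the annotated gene, further peaks of 3953 bp in CBX7 and 3518 bp in RING1B were called, and CBX6 replicate 2 had one of 3053 bp. Gata4 had 5, 4, 4 and 5 peaks in CBX6 replicate 1, CBX6 replicate 2, CBX7 and RING1B, the most of the 10 genes in each list.

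Sox17, the SRY-box factor that follows Gata6 in primitive endoderm, lies on chromosome 1 from 4481009 to 4486494 on the minus strand and was covered from end to end. Single peaks of 8064 bp in CBX6 replicate 2, 8539 bp in CBX7 and 8393 bp in RING1B reached past both ends of the gene of 5486 bp. CBX6 replicate 1 had a peak toward each end instead, of 2642 and 2607 bp, and the former had the highest score of any peak at the 10 genes in that list (440, percentile 98.9).

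Sox7, of the same SOXF family as Sox17, lies on chromosome 14 from 64562511 to 64569569 on the plus strand and had 1 peak per list. The peaks were 3301 bp wide in CBX6 replicate 2, 3609 bp in CBX7 and 3671 bp in RING1B, with scores of 631, 2315 and 2931 that stayed under the recurring one. In CBX6 replicate 1 the Sox7 peak was wider than in the other lists, at 4872 bp (width percentile 99.3). Among the 4 factors with peaks in all lists, Sox7 alone showed that order.

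Hnf4a, a nuclear receptor of visceral endoderm and liver, lies on chromosome 2 from 163332544 to 163398646 on the plus strand. Its single peak, in CBX6 replicate 1, was 1030 bp wide with a score of 66.3 (percentile 24.1) and lay in an intron, centred at −1581 bp from the nearest start. In the other 3 lists the closest peak was 130 kb away. Hnf4a was the only one of the 5 factors without CBX7 or RING1B.

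Pdgfra, the receptor for platelet-derived growth factor that marks primitive endoderm precursors, lies on chromosome 5 from 75548316 to 75594229. Its CBX7 peak of 9952 bp and RING1B peak of 9592 bp covered both annotated starts, and its CBX6 replicate 2 peak of 7656 bp covered 1 of them. All 3 had the recurring score of 3100.0. CBX6 replicate 1 had 3 narrower peaks there, the strongest of 3470 bp (score 344).

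Dab2, an endocytic adaptor of the extraembryonic endoderm that is annotated as 2 gene records, lies on chromosome 15 from 6249788 to 6390712. It had narrow peaks at its downstream starts, of 1430 bp in CBX7 (score 129, percentile 29.7) and 1311 bp in RING1B (score 61.6, percentile 6.12), each over 5 of 12 annotated starts. No CBX6 peak was closer than 181 kb in replicate 1 or 432 kb in replicate 2. Dab2 was the only one of the 10 genes with CBX7 and RING1B and without CBX6 in either replicate.

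Of the basement membrane genes, Col4a1 (chromosome 8, 11198423 to 11312826, minus strand), the α1 chain of type IV collagen, had a start peak in every list. Its RING1B peak of 4009 bp and CBX7 peak of 4013 bp had the recurring score, and the CBX6 peaks of 4289 and 3500 bp in replicates 1 and 2 had scores of 429 and 1818. Col4a2, its partner chain, is transcribed the other way from the adjacent start, and the peaks of all 4 lists covered that start too.

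Lamb1 (chromosome 12, 31950099 to 32014509), the laminin β1 chain, had weaker peaks at its starts. The CBX7 peak was 2686 bp wide with a score of 323 (percentile 51.8) and the RING1B peak 2695 bp with a score of 155 (percentile 29.3). CBX6 replicate 2 had a pair of peaks of 749 and 1313 bp on either side of the starts (scores 56.6 and 81.6), and the nearest peak of CBX6 replicate 1 was 169 kb away. Lama1 (chromosome 17, 68046605 to 68171985), the laminin α1 chain, had a peak of 2866 bp over its start in CBX6 replicate 1 (score 176, percentile 82.3). The nearest peaks of the other 3 lists were 342 kb from the gene.

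**Figure D3:**
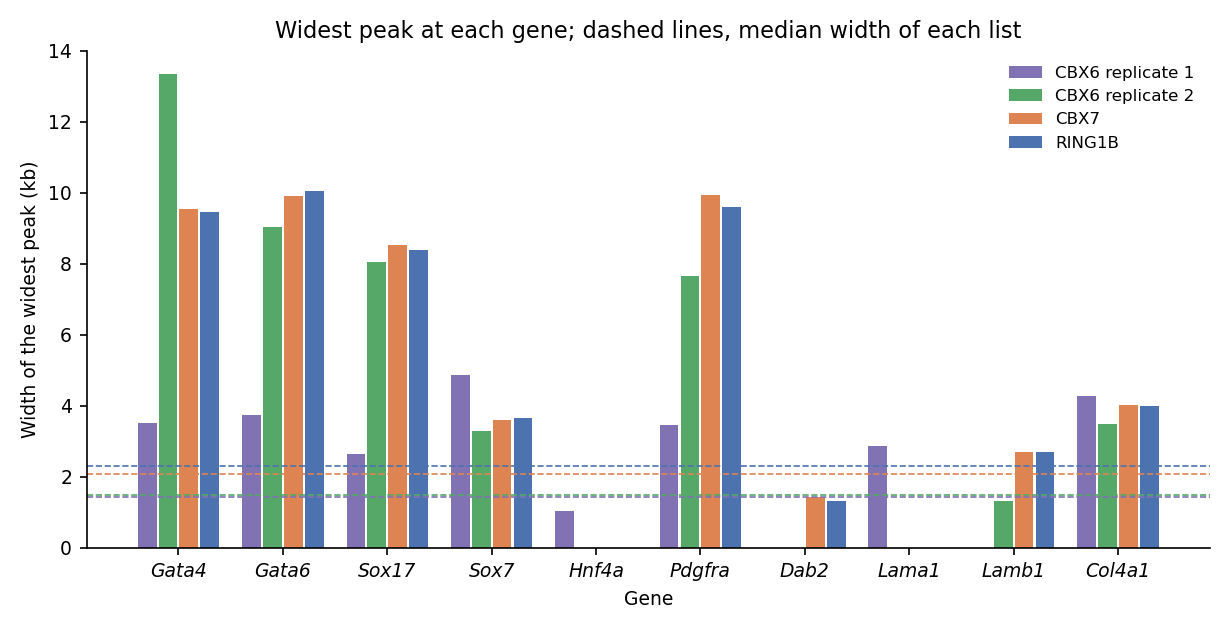
Width in kb of the widest peak at each of the 10 genes in the 4 lists, with dashed lines at the median width of each list. The widest peaks of CBX6 replicate 2, CBX7 and RING1B at Gata4, Gata6, Sox17 and Pdgfra lie between 7656 and 13336 bp, above the medians of these lists (1485 to 2315.5 bp).

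The list medians were 1438, 1485, 2076 and 2315.5 bp for CBX6 replicate 1, CBX6 replicate 2, CBX7 and RING1B. At Gata4, Gata6, Sox17 and Pdgfra, which encode regulators and a receptor, the widest CBX6 replicate 2, CBX7 and RING1B peaks lay at width percentiles between 96.6 and 99.6 of their lists. At Dab2 both peaks were below the median width of their list. In CBX6 replicate 1, whose peaks were shorter at the 4 genes with wide peaks, the widest peak at a gene did not follow that order, and the widest was at Sox7.

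The RNA-seq compared shCbx6 with shCtl to see how the level of each gene stands when CBX6 is reduced. Cbx6, the targeted gene, measured 17.4 and 14.9 FPKM in shCtl replicates 1 and 2 and 9.53 and 5.40 FPKM in shCbx6 replicates 1 and 2. The groups did not overlap, and the mean was 2.16-fold lower in shCbx6 (limma log2 difference −1.06, SE 0.263, adjusted p = 0.247). Summed FPKM were 677798 to 734472 per library, 11102 to 11310 genes reached 1 FPKM, and the deposited values hold no read counts. The ESC markers Pou5f1, Sox2, Nanog, Zfp42, Dppa5a and Tdgf1 were abundant in every library, at a sum of 5680 to 8360 FPKM.

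Differences were tested with limma on log2(FPKM + 1) for the 11577 genes whose mean reached 1 FPKM in shCtl or in shCbx6, two-sided and with Benjamini-Hochberg adjustment over all of them. This scale understates the difference of low genes. Of the primitive endoderm genes 4 were tested, and the other 6, all 5 transcription factors and Pdgfra, were below the minimum and are described only. Nothing in the sources says that the replicates are separate cultures, so p-values measure the spread between these libraries, which may be technical. In bulk RNA, fewer cells of a kind and less RNA per cell cannot be told apart.

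None of the 4 tested genes passed an adjusted p of 0.05 in limma. Among all genes tested, 0.0432% were called higher and 0.0518% lower, 11 genes in all. At an unadjusted p under 0.05 there were 2, Lama1 and Lamb1, beside 11.7% of all genes. In the ratio of mean FPKM, 2 of the 4 were at least 1.5-fold higher (Dab2 and Lamb1, background 7.64%) and 1 at least 1.5-fold lower (Lama1, background 6.56%). The same 3 were the tested genes whose groups did not overlap, 2 higher and 1 lower, beside 18.9% and 24.3% of all genes. Dab2 was below 1 FPKM in shCtl and entered the test only through shCbx6, so it could hardly have counted as lower. Of the 3 genes at 1 FPKM or more in shCtl, Lamb1 was higher, Lama1 lower and Col4a1 overlapping. Their median log2 difference was −0.38, that of the 4 with Dab2 0.01, and that of all genes −0.012.

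Lama1 had the largest difference of the tested genes. Its level was 9.95 and 9.29 FPKM in shCtl replicates 1 and 2, and 2.90 and 2.04 FPKM in shCbx6 replicates 1 and 2. Both shCbx6 libraries were far below both controls, and the higher library exceeded the lower by 1.07-fold in shCtl and 1.42-fold in shCbx6. The means were 9.62 ± 0.464 and 2.47 ± 0.608 FPKM (SD, n = 2), 3.90-fold lower in shCbx6. The limma difference was −1.62 (SE 0.176, adjusted p = 0.0757), rank 28 by p among all genes. With shCbx6 replicate 1 left out, the difference was −1.80 with an adjusted p of 0.0140, past the threshold in a setting that called 397 genes in all. Without shCtl replicate 1, shCtl replicate 2 or shCbx6 replicate 2 it was −1.58, −1.67 or −1.44 (adjusted p = 0.433, 0.450 and 0.0817).

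Lamb1, whose chain pairs with that of Lama1 in the laminin of primitive endoderm, stood the other way. Its level was 12.1 and 10.8 FPKM in shCtl, against 15.4 and 24.0 FPKM in shCbx6 replicates 1 and 2. Both shCbx6 libraries were above both controls, with shCbx6 replicate 2 further away than replicate 1. Means were 11.4 ± 0.886 and 19.7 ± 6.11 FPKM (SD, n = 2), 1.72-fold higher (log2 difference 0.70, SE 0.230, adjusted p = 0.347 in limma). The value was 0.40 without shCbx6 replicate 2 and 1.01 without shCbx6 replicate 1 (adjusted p = 0.641 and 0.0626).

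The ratio of Lama1 to Lamb1 FPKM was therefore 0.825 and 0.860 in shCtl, against 0.189 and 0.0849 in shCbx6. Lamc1, which encodes the γ1 chain that both join and was chosen for this after its values were seen, measured 63.9, 59.2, 56.8 and 64.5 FPKM in shCtl 1, shCtl 2, shCbx6 1 and shCbx6 2. Against Lamc1, Lama1 went from 0.156 and 0.157 to 0.0510 and 0.0316, and Lamb1 from 0.189 and 0.183 to 0.271 and 0.372. These ratios restate the differences of Lama1 and Lamb1 given above, so that their groups are apart adds no further support. They were not tested.

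Col4a1 differed more within shCbx6 than between the groups. It measured 4.02 and 4.22 FPKM in shCtl, 1.39 FPKM in shCbx6 replicate 1 and 5.52 FPKM in shCbx6 replicate 2. One shCbx6 library was below both controls and the other above both, a 3.97-fold gap within shCbx6 against 1.05-fold within shCtl. The limma difference was −0.38 (SE 0.467, adjusted p = 0.817), and it turned to 0.35 (adjusted p = 0.397) without shCbx6 replicate 1 and to −1.10 (adjusted p = 0.139) without shCbx6 replicate 2. Its neighbour Col4a2, which shares the peaks, measured 1.61, 1.30, 0.564 and 3.41 FPKM in shCtl 1, shCtl 2, shCbx6 1 and shCbx6 2, with both shCtl libraries again between the shCbx6 ones. Col4a2 was chosen after its values were seen.

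**Figure D4:**
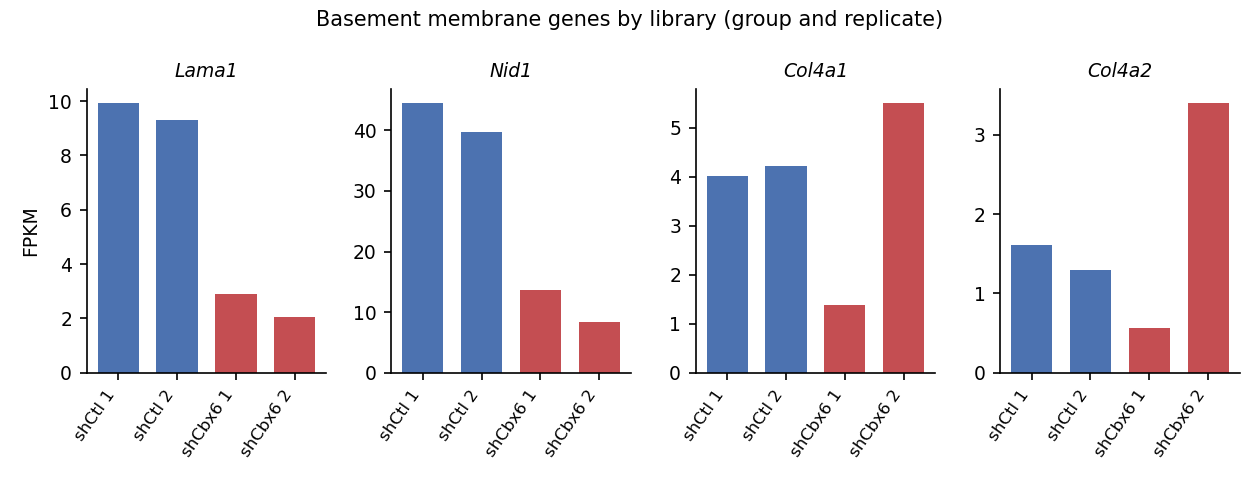
FPKM of Lama1, Nid1, Col4a1 and Col4a2 in each RNA-seq library, bars from 0, with a separate axis for each gene. Both shCbx6 libraries are below both shCtl libraries for Lama1 and Nid1, while for Col4a1 and Col4a2 shCbx6 replicate 1 is the lowest and replicate 2 the highest.

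Dab2 was near the minimum in all libraries but one. It measured 0.657 and 0.576 FPKM in shCtl, 0.699 FPKM in shCbx6 replicate 1 and 1.67 FPKM in shCbx6 replicate 2. The first shCbx6 library was just above the controls and the second well above them. Dab2 passed the filter only through shCbx6 replicate 2, the library with the highest sum of trophectoderm markers (138 FPKM) and the lowest Cbx6 (5.40 FPKM). The part of either in the Dab2 level was not tested. The Dab2 means of 0.617 ± 0.0568 and 1.18 ± 0.683 FPKM (SD, n = 2) gave a 1.92-fold ratio (limma log2 difference 0.40, SE 0.273, adjusted p = 0.650). The difference was 0.72 (adjusted p = 0.113) without shCbx6 replicate 1, and Dab2 fell below the filter without shCbx6 replicate 2.

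Pdgfra measured 0.224 and 0.197 FPKM in shCtl, against 0.154 and 0.0971 FPKM in shCbx6. Both shCbx6 libraries were below both controls, and the mean was 1.67-fold lower (0.210 ± 0.0186 against 0.126 ± 0.0404 FPKM, SD, n = 2). Like the transcription factors, Pdgfra was too low to test, and its counting error is given with theirs.

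For such low genes the support in fragments matters. After correction for relative depth (1.013, 0.956 and 1.127 in shCtl 2, shCbx6 1 and shCbx6 2, with shCtl 1 as the unit), the 4 values of a low gene often stood in ratios of small whole numbers. This held within 0.02 of a unit for 2527 of 2897 genes that were above 0 in all libraries and under 0.5 FPKM, or 87.2%. Read as fragments, these numbers give exact 95% Poisson intervals, which cover counting error only and would be narrower if the true numbers were a multiple.

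Pdgfra stood as 47, 42, 31 and 23. Its intervals were 0.164 to 0.297 and 0.142 to 0.267 FPKM in shCtl, against 0.105 to 0.219 and 0.0615 to 0.146 FPKM in shCbx6, and shCtl replicate 1 and shCbx6 replicate 2 were the only pair across the groups that did not overlap.

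Sox7 was the transcription factor with the most RNA in shCtl, and Gata4 in shCbx6. It measured 0.700 and 0.604 FPKM in shCtl, against 0.361 and 0.228 FPKM in shCbx6, which stood as 71, 62, 35 and 26. Both shCbx6 libraries were below both controls, 2.22-fold lower in the mean (0.652 ± 0.0682 against 0.294 ± 0.0945 FPKM, SD, n = 2). The intervals, 0.547 to 0.883 and 0.463 to 0.774 FPKM in shCtl against 0.252 to 0.502 and 0.149 to 0.333 FPKM in shCbx6, overlapped between shCtl replicate 2 and shCbx6 replicate 1 alone.

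Gata4 and Gata6 were low in all 4 libraries. Gata4 measured 0.426 and 0.393 FPKM in shCtl, against 0.416 and 0.504 FPKM in shCbx6, with overlapping groups (0.409 ± 0.0236 against 0.460 ± 0.0623 FPKM, SD, n = 2). Gata6 measured 0.111 and 0.150 FPKM in shCtl, against 0.158 and 0.188 FPKM in shCbx6 (0.130 ± 0.0272 against 0.173 ± 0.0210 FPKM, SD, n = 2). The Gata6 groups did not overlap, but its numbers of 11, 15, 15 and 21 have intervals that all overlap, from 0.0555 to 0.199 FPKM in shCtl replicate 1 to 0.116 to 0.288 FPKM in shCbx6 replicate 2. Gata4, at 15, 14, 14 and 20, also had overlapping intervals, and its numbers may be the true ones divided by a common factor, since with the longest annotated transcript they imply a shCtl replicate 1 library of 10.4 × 1e6 fragments, where the other 8 genes with such numbers imply 30.7 to 32.4 × 1e6. No difference at Gata4 or Gata6 beyond counting error was found.

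Sox17 had the least RNA of the 10 genes in shCtl, and Hnf4a in shCbx6. Its 0.0103, 0.0204, 0.0540 and 0.0366 FPKM in shCtl 1, shCtl 2, shCbx6 1 and shCbx6 2 stood as 1, 2, 5 and 4. The shCbx6 libraries were above the controls (0.0154 ± 0.00712 against 0.0453 ± 0.0123 FPKM, SD, n = 2, a 2.95-fold ratio), but the 4 intervals all overlapped, and no direction was read from a total of 12. Hnf4a measured 0.182 and 0.0431 FPKM in shCtl, against 0.00761 and 0.0258 FPKM in shCbx6, or 25, 6, 1 and 4. Here shCtl replicate 1 stood far above the other 3 libraries, and the interval of shCtl replicate 2 (0.0158 to 0.0938 FPKM) overlapped both of shCbx6. The mean was 6.73-fold lower in shCbx6 (0.112 ± 0.0981 against 0.0167 ± 0.0129 FPKM, SD, n = 2), with most of the control mean from shCtl replicate 1.

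Of the 6 genes below the minimum, 1 was past 1.5-fold higher (Sox17) and 3 lower (Sox7, Hnf4a and Pdgfra), beside 40.8% and 22.8% of the 6997 genes below the minimum that were above 0 in some library. Groups were apart for 2 higher (Gata6 and Sox17) and 3 lower (Sox7, Hnf4a and Pdgfra), beside 23.5% and 13.3% of those genes. The 5 transcription factors summed to 1.43 and 1.21 FPKM in shCtl, against 0.997 and 0.982 FPKM in shCbx6. Sox7 was the largest part of both shCtl sums, at 0.700 and 0.604 FPKM, against 0.361 and 0.228 FPKM in shCbx6. Hnf4a was lower too, Gata4 overlapped, and Gata6 and Sox17 were higher, so the sum does not describe the 5 as a group. All 5 stayed under 1 FPKM in every library. Of the 6 genes with peaks in all 4 lists, Sox7 and Pdgfra had both shCbx6 libraries below both controls, Gata6 and Sox17 had both above, and Gata4 and Col4a1 had overlapping groups. For Gata6 and Sox17 all Poisson intervals overlapped, and no direction was read. Those of Pdgfra were apart only between shCtl replicate 1 and shCbx6 replicate 2.

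The order of the levels in shCtl was Lamb1, Lama1, Col4a1, Sox7, Dab2, Gata4, Pdgfra, Gata6, Hnf4a and Sox17. Lamb1 lay at percentile 75.8 of all genes and Sox17 at percentile 28.8. Neighbours whose shCtl libraries overlapped, and which therefore did not differ beyond their spread, were Sox7 and Dab2, and Gata6 and Hnf4a. In shCbx6 the order at the top differed, with a mean of 3.45 ± 2.92 FPKM (SD, n = 2) for Col4a1 and a lower one for Lama1, whose libraries lay within the range of Col4a1.

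Other genes of the tissue were read from lists of known function. Among 10 further basement membrane genes, all tested, none passed the adjusted p, 2 had an unadjusted p under 0.05 (11.7% of all genes tested), and the median log2 difference was 0.11. In the ratio of means 3 were past 1.5-fold higher and 1 lower, beside 7.64% and 6.56% of all genes tested. Of the 3, Sparc and Serpinh1 had overlapping groups and were above the controls in shCbx6 replicate 2 alone, with 61.0 and 18.8 FPKM there against 17.6 and 4.95 FPKM in shCbx6 replicate 1. Nid1, which encodes the nidogen linker between laminin and collagen IV, had 44.6 and 39.8 FPKM in shCtl, against 13.6 and 8.43 FPKM in shCbx6, a difference of −1.88 (SE 0.236, adjusted p = 0.0883) beside that of Lama1. Lama5, the α5 chain of other laminins, had 20.9, 15.5, 26.7 and 30.2 FPKM (0.63, SE 0.186, adjusted p = 0.308). The α1 chain was thus below the controls in both shCbx6 libraries and the α5 chain above them in both.

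**Figure D5:**
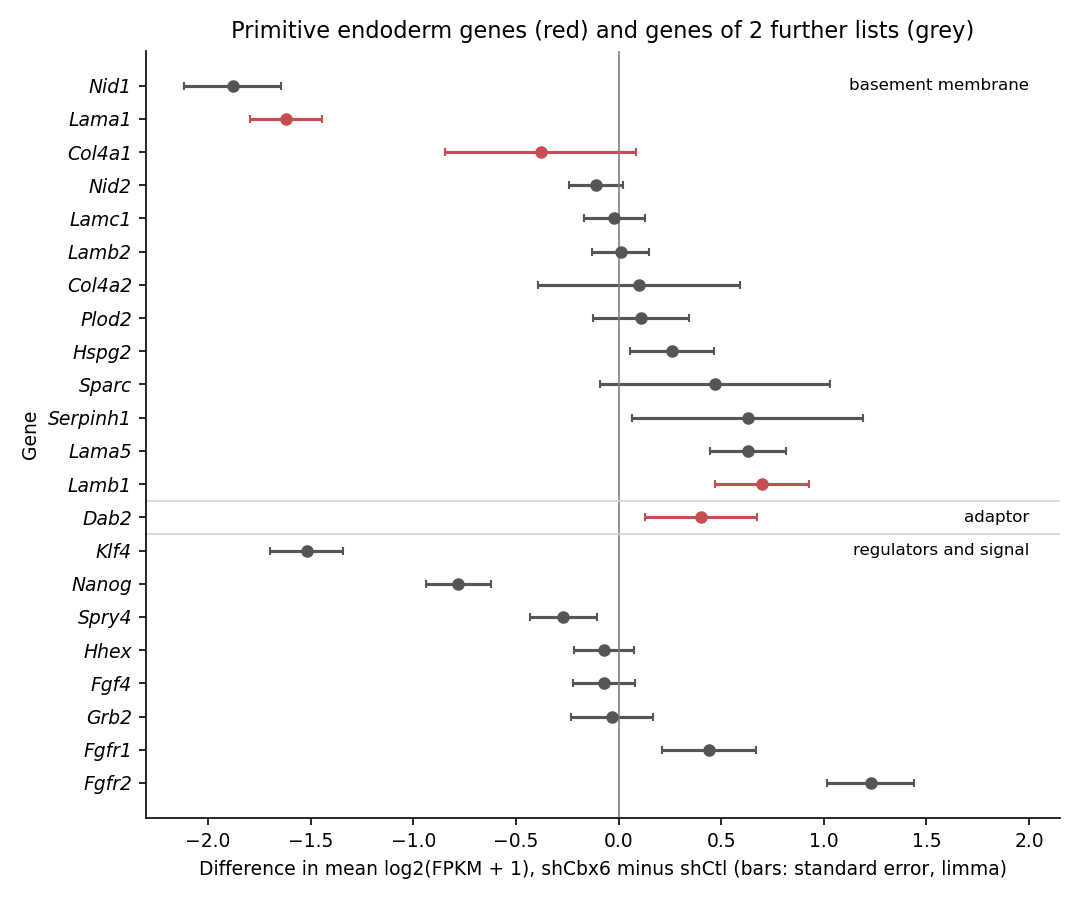
Difference in mean log2(FPKM + 1), shCbx6 minus shCtl, with the limma standard error as bars, for the 4 tested primitive endoderm genes (red) and the tested genes of the basement membrane and regulator lists (grey). Lama1 at −1.62 lies beside Nid1 at −1.88 at the low end, Klf4 at −1.52 is the lowest of the regulators, and no gene shown passed an adjusted p of 0.05.

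Of 12 regulators and signal genes of primitive endoderm, 8 were tested and none passed the adjusted p, while 3 had an unadjusted p under 0.05, beside 11.7% of all genes tested. Klf4, a pluripotency factor, had 91.1 and 96.7 FPKM in shCtl, against 36.7 and 28.0 FPKM in shCbx6 (−1.52, SE 0.177, adjusted p = 0.0842). Fgfr2, a receptor for FGF4, had 0.308 and 0.192 FPKM in shCtl, against 1.61 and 2.27 FPKM in shCbx6 (1.23, SE 0.212, adjusted p = 0.143), and it is 1 of these 3 although it passed the filter only through shCbx6. Groups were apart for 2 of the 8 higher and 4 lower, beside 18.9% and 24.3% of all genes tested. The lower ones include Nanog, which is an ESC marker too, and Fgfr2 is among the higher ones. The median of the 8 was −0.07.

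Later endoderm was read from lists of its visceral and parietal derivatives. Of 14 visceral endoderm genes 4 were tested, with no unadjusted p under 0.05, and 9 were under 1 FPKM in every library. Afp, Ttr and Apoa4, secreted products of visceral endoderm, were listed at 0 in all 4 libraries. Other genes of the list, named after their values were seen, were present in these ESCs, with 323, 404, 444 and 294 FPKM for the apolipoprotein gene Apoe, 76.7, 47.6, 121 and 19.7 FPKM for the Nodal inhibitor gene Lefty1, and 5.59, 2.87, 4.98 and 6.54 FPKM for the endocytic receptor gene Lrp2. Of 7 parietal endoderm genes 3 were tested, again with no unadjusted p under 0.05. The largest log2 differences with groups apart were those of Cited1 with 0.212, 0.524, 0.585 and 3.29 FPKM and Snai1 with 0.328, 0.712, 0.777 and 1.96 FPKM (0.94 and 0.60, SE 0.489 and 0.313, adjusted p = 0.543 and 0.540), each with shCbx6 replicate 2 well above the other 3 libraries. Both passed the filter only through shCbx6, so they could hardly have come out lower. The other tested gene of the list, Fst, named after its values were seen, was at 1 FPKM or more in shCtl and had both shCbx6 libraries below both controls, with 1.42, 1.40, 1.02 and 1.08 FPKM (−0.23, SE 0.175).

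Markers of other cell types also differed between these libraries. The 6 trophectoderm markers summed to 7.73 and 9.73 FPKM in shCtl, 20.3 FPKM in shCbx6 replicate 1 and 138 FPKM in shCbx6 replicate 2, the library in which Dab2, Lamb1 and Col4a1 were highest. Cbx6 was lowest in that library. The simple keratin Krt8, at 4.81, 7.25, 12.1 and 119 FPKM, made up the largest part of each sum, with Krt7 at 0.0219, 0.151, 0.549 and 9.02 FPKM. All 3 tested trophectoderm markers had groups apart and higher (18.9% of all genes tested), with none called, but Krt7 entered the test only through shCbx6. None of the 6 was at 0 throughout. The 9 fibroblast markers summed to 2.1, 2.32, 2.17 and 5.52 FPKM, with 8 under 1 FPKM in every library and Lum at 0. Thy1 was the largest part of each sum, at 1.68, 1.64, 1.16 and 3.82 FPKM. The untested Col1a1, Col1a2, Col3a1, Dcn and Twist1 had groups apart and higher, beside 23.5% of the genes below the minimum and above 0 in some library. Thy1, Postn, Twist2 and Lum overlapped. The 7 markers of definitive endoderm and primitive streak summed to 176, 138, 288 and 96.8 FPKM, nearly all of it from Trh (173, 136, 286 and 93.7 FPKM), with neither tested gene apart. Among the untested genes of this list, named after their values were seen, T had 0.0984, 0.0324, 0.446 and 0.771 FPKM, Gsc 0.156, 0.0615, 0.0326 and 0 FPKM, and Cxcr4 0.544, 0.500, 0.353 and 0.150 FPKM. T and Mixl1 were above the controls in both shCbx6 libraries, and Gsc, Cxcr4 and Foxa2 below. Of the genes below the minimum and above 0 in some library, 23.5% were apart higher and 13.3% lower. Of the 6 ESC markers 5 were below the controls in both shCbx6 libraries, beside 24.3% of all genes tested, led by Nanog with 321, 359, 204 and 192 FPKM (−0.78, SE 0.160, adjusted p = 0.188) and Tdgf1 with 517, 534, 372 and 277 FPKM (−0.71, SE 0.205, adjusted p = 0.299). Their part in the differences of the primitive endoderm genes was not tested.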

How the data were processed

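The deposited RNA-seq table gives FPKM per gene symbol. The authors aligned reads to mm9 with TopHat, keeping reads with 1 mapping place, and estimated FPKM per RefSeq transcript with Cufflinks (versions not given in the sources used here). How transcripts were combined is not stated, and the table is called RPKM in 1 place. FPKM are relative to each library, so a difference in total RNA cannot be seen. Of 23290 entries, 25 carry dates in place of symbols and were left out. The deposited peak lists hold positions and a score per peak, which the authors called per sample with MACS from reads aligned by Bowtie to 1 place.

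Computed here were limma 3.58.1 (lmFit, eBayes with trend, R 4.3.3) on log2(FPKM + 1) for genes whose mean reached 1 FPKM in shCtl or shCbx6, ratios of mean FPKM, and peak overlaps (bedtools 2.31.1, Python 3.11.15, pandas 2.3.3, numpy 2.4.6, scipy 1.17.1, matplotlib 3.10.9). Coordinates come from the GENCODE annotation of mm9 (21149 symbols found by name, 802 more through a synonym). The fit was checked on simulated data. The 10 genes were named everywhere, Cbx6 as the knockdown check, and from each other list the genes past the adjusted p or else the 2 tested genes with the largest log2 difference and no overlap of groups. Further genes of the lists, among them Sparc, Serpinh1, Thy1 and Trh, were named after their values were seen. The genes and lists were chosen with earlier results of these data known. Alternatives covered the pseudocount, filter, scaling, fold threshold, replicate block, single libraries, peak window, score and overlap. The authors' control ChIP-seq samples were not used here.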

Additional observations from a re-analysis of the deposited data

How the results depend on the processing

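With 2 libraries per group, an exact permutation test of 1 gene cannot go below p = 0.333, so the calls rest on limma's pooled spread, and a group left with 1 library is assumed to vary like the other. Lama1 was lower in shCbx6 under all 9 alternatives run, but its adjusted p in limma ranged from 0.0140 to 0.450. Replicates 1 and 2 share only a number, and the correlation of their same-numbered deviations across genes was 0.266. With a replicate block, the Lama1 difference of −1.62 had an adjusted p of 0.0168, the number of primitive endoderm genes called went from 0 to 1, and 388 genes were called in all against 11. Leaving out single libraries gave −1.80 to −1.44 for Lama1 and 0 or 1 called gene, with 1 called and 397 genes in all without shCbx6 replicate 1. The cause of these shifts was not tested.

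Col4a1 went from −0.38 to 0.35 without shCbx6 replicate 1, and its range over left-out libraries was −1.10 to 0.35. Dab2 and Lamb1 kept their direction and their side of the threshold under the 8 and 9 alternatives that gave a value, with 0.72 for Dab2 without shCbx6 replicate 1 against 0.40 with all libraries, and Dab2 fell below the filter without shCbx6 replicate 2. The number of genes at least 1.5-fold higher was 2, 3 with no filter and 0 at a fold threshold of 2. Over left-out libraries it was 0 to 2, with 0 without shCbx6 replicate 2. The number at least 1.5-fold lower was 1, and 4 with no filter, by the construction of that alternative, which adds genes under 1 FPKM. Over left-out libraries it was 1 to 2, with 2 without shCbx6 replicate 2. Counts of genes with a peak changed by 2 at most under each window, score, overlap and shared-peak alternative.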
